A study of Mus musculus with 8 samples.

Results

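Across the cell types of the mouse hippocampus, 6 genes of the neurotrophin system were followed, namely the ligands Bdnf and Ntf3, the Trk receptors Ntrk2 (TrkB) and Ntrk3 (TrkC), the pan-neurotrophin receptor Ngfr and the sorting receptor Sort1 (sortilin). They were picked by gene symbol, with no measured value in the rule, and are 6 of the 30211 genes in the count matrices. Single-nucleus RNA sequencing on the 10X Genomics platform was performed on hippocampi of 8 C57BL/6 mice, with 1 library per mouse. The WT group held 3 mice aged 7 mo. The GKO group held 3 mice of the same age with a constitutive deletion of internal exons of Gsap, the gene of γ-secretase activating protein, made by crossing a floxed allele to a CMV-Cre line. The J20;WT and J20;GKO groups each held 1 mouse aged 6 mo, which carried the J20 transgene, a human APP that carries the Swedish and the Indiana mutation and is driven by the human PDGFB promoter, on an intact or a deleted Gsap. The question asked of these mice is what loss of GSAP does in each hippocampal cell type, with and without a transgene that models Alzheimer's disease. With 1 mouse for each J20 genotype, values from the J20 mice had no replicate check and entered no genotype test.

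Neurotrophins are made as precursors (proneurotrophins) that proteases cut to the mature form. Mature BDNF acts through TrkB and mature NT-3 mainly through TrkC, both receptor tyrosine kinases, whereas proneurotrophins bind p75NTR (the product of Ngfr) together with sortilin. In the hippocampus BDNF is known for activity-dependent transcription and for its part in synaptic plasticity, and granule cell axons, the mossy fibers, are rich in it. Both Trk receptor genes also give truncated forms without the kinase domain, and the truncated TrkB form is the one known from astrocytes.

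After the filter on nuclei, 32041 of 33314 barcodes were kept, at 2731 to 5252 nuclei, 21020159 to 43310978 unique molecular identifiers (UMIs) and a median of 4579 to 6438.5 UMIs per nucleus in each library. At most 21 cell barcodes were shared by a pair of libraries. Between 3.29% and 11.6% of the nuclei of a library stayed without a cell type, and 24.7% to 66.1% of its inhibitory nuclei without an interneuron subtype. Over all nuclei Gsap lay at 22.5, 23.0 and 22.3 CPM (UMI counts scaled to the total UMIs of the same nuclei) in WT, 19.8, 21.8 and 22.0 CPM in GKO, 19.9 CPM in J20;WT and 21.1 CPM in J20;GKO. The WT and GKO values did not overlap, as held for 5.15% of 19193 genes, and the log2 fold change was -0.074 ± 0.09 (SE, edgeR adjusted p = 1.00). Where these UMIs lie relative to the deleted exons is not given in the sources used here, so they are no check of the deletion. Going by the date attached to each deposited matrix, the first WT and first GKO mouse share a date, the J20;WT mouse has its own, and the other 5 mice share the remaining one, so for the J20 pair date and genotype cannot be told apart. The J20 mice were also younger than the WT and GKO mice, so between these groups age and transgene cannot be told apart. Cell types were named from marker lists, and each name stands for nuclei like that class. No count of the 6 genes entered the clustering or the markers. The 3 principal excitatory types were dentate granule neurons (5557 nuclei), CA1 (2503) and CA3 (957). A CA3 subcluster of 187 nuclei with few UMIs, led by Ttr, took 96 of its nuclei from the J20;WT mouse. Levels are given as CPM of the UMIs summed over the nuclei of a type in 1 library, as mean ± SD over the 8 libraries unless stated otherwise. They were compared between cell types within a gene and never between genes.

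Bdnf (ENSMUSG00000048482, chromosome 2, 109674700 to 109727007, + strand, GRCm38) had its 8 highest means in excitatory types. In dentate granule neurons its level was 60.3, 76.7 and 86.9 CPM in the WT mice, 69.1, 53.6 and 78.3 CPM in the GKO mice, 120.9 CPM in the J20;WT mouse and 151.4 CPM in the J20;GKO mouse. The WT and GKO values overlapped, and both J20 mice lay above all 6 of them. The share of all genes with both J20 mice outside the range of the others is not given here. In CA3 Bdnf was at 70.7, 55.0 and 49.6 CPM in WT, 61.2, 34.1 and 29.97 CPM in GKO, 53.9 CPM in J20;WT and 36.5 CPM in J20;GKO. In CA1 it was at 23.6, 43.7 and 33.8 CPM in WT, 17.9, 23.2 and 32.3 CPM in GKO, 42.9 CPM in J20;WT and 39.2 CPM in J20;GKO. In CA1 and CA3 the groups overlapped, and the J20 mice lay within the range of the other 6.

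Over the 17 types with at least 10 nuclei in every library, the order of Bdnf ran from dentate granule neurons (87.1 ± 33.0 CPM) through an unnamed excitatory cluster led by Gm6260 and Nts (80.2 ± 32.7), CA2 (64.8 ± 29.5), a smaller CA3 cluster led by 2600014E21Rik and Col6a1 (55.1 ± 20.7), CA3 (48.9 ± 14.2), an unnamed excitatory cluster led by Cbln4 and Cdc14a (48.8 ± 44.3) and a subiculum or cortex cluster led by Pdzrn3 and Bglap3 (36.9 ± 10.4) to CA1 (32.1 ± 9.7). Cajal-Retzius cells (17.2 ± 15.3 CPM), mural cells or fibroblasts (17.2 ± 20.4) and astrocytes (16.9 ± 6.0) came next, above the 2 remaining excitatory types, which were deep-layer cortex neurons (13.5 ± 6.2) and the subiculum or cortex cluster led by Gm47902 and Kcnip1 (12.2 ± 6.4). Oligodendrocyte progenitor cells (OPCs, 9.65 ± 6.59 CPM), microglia (7.68 ± 2.42), oligodendrocytes (6.91 ± 2.44) and interneurons (3.45 ± 2.03) had the lowest means. The place of the cluster led by Cbln4 rests on the J20 libraries. Its mean was 27.6 CPM in WT and 27.5 CPM in GKO, against 37.0 and 27.6 CPM in the cluster led by Pdzrn3 and 33.7 and 24.5 CPM in CA1. It held 56 nuclei of the J20;WT mouse, of which 10 passed a stricter filter on nuclei. Over all 6 genes, neighbours in this kind of order were compared within libraries with a 2-sided exact sign-flip permutation test of the log2 ratio (n = 8), and 0 of 96 comparisons passed Benjamini-Hochberg adjustment, with 15 at an unadjusted p under 0.05. The smallest p that 8 libraries allow in this permutation test is 0.0078125. At that p a call needed at least 15 comparisons, and 5 reached it. At a larger p a call needed more comparisons. The test was therefore repeated among the 8 named types with at least 900 nuclei, a choice made after the data were seen, and 14 of 42 neighbours then passed. Without the J20 libraries 0 of 42 passed, where the 6 remaining libraries allow no p below 0.03125. For Bdnf, CA1 exceeded astrocytes in 8 of 8 libraries by 0.89 ± 0.51 (SD) on the log2 scale (exact permutation test, adjusted p = 0.0234). Dentate granule neurons were 0.80 ± 0.71 above CA3 and higher in 7 of 8 libraries, which did not pass (exact permutation test, adjusted p = 0.0518), nor did CA3 against CA1 (0.60 ± 0.68, higher in 6 of 8 libraries, exact permutation test, adjusted p = 0.0656). The lead of dentate granule neurons over the cluster led by Nts, 0.16 on the log2 scale with 3 of 8 libraries higher, turned to -0.22 without the J20 libraries and to -0.095 without the J20;WT library alone.

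Mean Bdnf levels differed among subclusters of one type, which was not tested. Of the 3 dentate granule subclusters, the one led by Cxcl12 and Plk5 (2036 nuclei) held 137 ± 27.8 CPM, the one led by Slc38a11 and Stk32b (1604 nuclei) 75.3 ± 39.8 CPM and the one led by Dsp and Il1r1 (1917 nuclei) 53.9 ± 25.2 CPM. Both J20 mice lay above the other 6 mice in each of the 3, at 171 and 181 CPM against 102 to 140, at 116 and 154 CPM against 38.6 to 73.8, and at 70.1 and 107 CPM against 27.6 to 57.8. For how many of all genes this holds is not given here. The share of granule nuclei in the first subcluster was 38.9% in J20;WT and 37.8% in J20;GKO, within the 33.7% to 39.3% of the other mice. The share in the Dsp subcluster, lowest in Bdnf, was below that of the other mice, at 27.1% and 26.1% against 34.3% to 39.4%, and the share in the Slc38a11 subcluster was above it, at 34.1% and 36.1% against 25.2% to 29.3%. The part of these shares in the level over all granule nuclei was not tested. The 2 CA1 subclusters held 42.6 ± 16.6 CPM and, in the one led by Dcn, 23.0 ± 5.45 CPM. At least 1 Bdnf UMI was found in 40.5% of dentate granule nuclei (median 7777 UMIs) and in 2.95% of interneuron nuclei (median 11010 UMIs). The latter serve as the background and leave out inhibitory nuclei without a subtype. With each nucleus thinned to 1000 UMIs the shares were 8.06% and 0.696%, after leaving out 11 and 30 shallower nuclei.

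Bdnf is transcribed from several start sites, and 1 of its promoter windows is shown because it holds the half-site that CREB family factors bind, for comparison with the immediate early genes. The window is chr2:109692186-109692485 on the + strand of GRCm38.p6 (RefSeq), which runs from 250 bases before to 50 bases after a start site, with the half-site CGTCA in capitals:
Bdnf promoter window: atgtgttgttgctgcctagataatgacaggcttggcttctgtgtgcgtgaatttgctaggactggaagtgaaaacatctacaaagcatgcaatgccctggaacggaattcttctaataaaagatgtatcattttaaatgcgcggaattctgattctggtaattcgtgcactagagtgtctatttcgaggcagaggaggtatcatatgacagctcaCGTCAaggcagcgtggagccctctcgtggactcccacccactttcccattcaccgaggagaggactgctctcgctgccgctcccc
The match begins 35 bases before the start. CGTCA, or TGACG on the other strand, occurred in 1 of the 7 Bdnf windows and in 0 of 4 windows of Ntf3, Ngfr and Ntrk2, against 20.8% of all 32851 windows and 10 of 12 windows of 8 immediate early genes. The full palindrome TGACGTCA, which contains the half-site on both strands, occurred in 0 of the 7 Bdnf windows and in 1.79% of all windows. Ntrk3 and Sort1 were not listed, nor were the immediate early genes Egr1, Arc and Ier2. Overlapping windows of Egr2 hold the same matches, which count more than once among the 12. UMIs counted per gene do not tell the Bdnf start sites apart.

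Because Bdnf is induced by neuronal activity, its level was set against the sum of 11 immediate early genes (Fos, Fosb, Junb, Egr1, Egr2, Egr4, Arc, Nr4a1, Npas4, Dusp1 and Ier2) across the 8 libraries. In CA1 the sum ran from 70.3 CPM in the first WT mouse to 187 CPM in the J20;WT mouse, and libraries with more immediate early gene UMIs held more Bdnf. Pearson's r on the log2 scale was 0.72 (exact permutation p = 0.0472) and Spearman's rho was 0.79 (exact permutation p = 0.0279), which over the 4 groups of nuclei examined gave adjusted p = 0.189 and 0.112, so the relation did not pass the adjustment. Without the 2 libraries farthest from the median of the sum r was 0.71, and without the J20 mice it was 0.74. In dentate granule neurons r was 0.37 (exact permutation p = 0.374) and rho 0.71 (exact permutation p = 0.0576), in CA3 r was 0.42 (exact permutation p = 0.297) and rho 0.26 (exact permutation p = 0.536), and in all excitatory nuclei r was 0.59 (exact permutation p = 0.122) and rho 0.62 (exact permutation p = 0.115). At most 5 libraries share 1 date, fewer than the 6 required here for a correlation, so no value within a date is given.

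**Figure D1:**
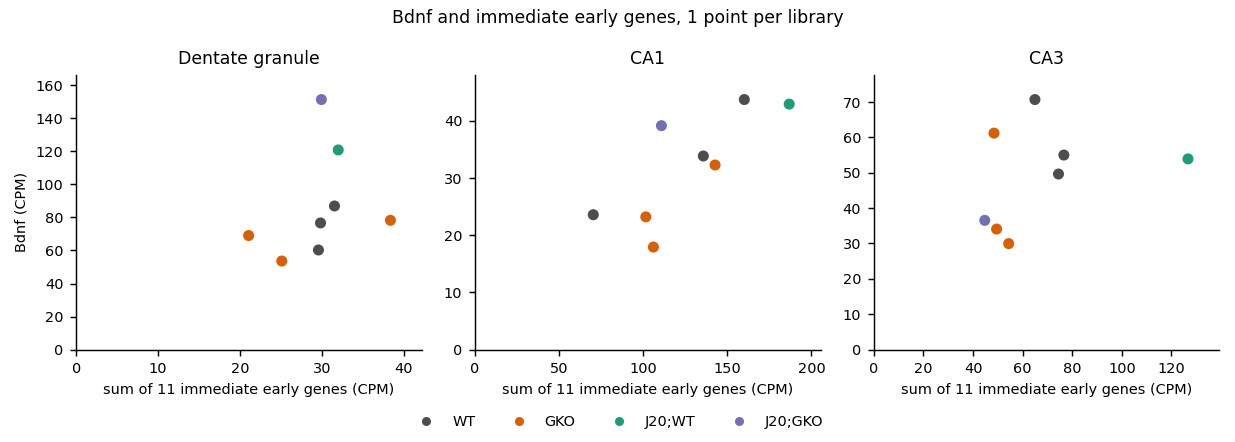
Bdnf (CPM) against the sum of 11 immediate early genes (CPM) in dentate granule, CA1 and CA3 nuclei, 1 point per library and coloured by group. In CA1 the points rise together (r = 0.72), while in the dentate gyrus both J20 mice stand above the others at sums of 32.0 and 29.9 CPM, inside the range of the other 6 mice.

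Ntf3 (ENSMUSG00000049107, chromosome 6, 126101412 to 126166910, - strand) had its highest means in CA2 and dentate granule neurons, with little in CA1 or CA3. In dentate granule neurons it was at 71.8, 76.5 and 87.3 CPM in WT, 55.1, 54.9 and 76.9 CPM in GKO, 90.7 CPM in J20;WT and 21.7 CPM in J20;GKO. The J20;GKO mouse was below all others there. In CA2 (147 nuclei) Ntf3 was at 60.8, 86.1 and 166 CPM in WT, 257, 119 and 94.6 CPM in GKO, 70.7 CPM in J20;WT and 39.2 CPM in J20;GKO. CA2 therefore led the order of Ntf3 with 112 ± 70.2 CPM, followed by dentate granule neurons with 66.9 ± 22.4 CPM, and the gap of 0.61 on the log2 scale (higher in CA2 in 6 of 8 libraries) did not pass (exact permutation test, adjusted p = 0.409). It turned to -0.13 when cell types were taken from marker sums. The cluster led by Cbln4 held 36.4 ± 21.3 CPM and the one led by Pdzrn3 held 29.4 ± 13.8 CPM. Deep-layer cortex neurons (9.57 ± 3.54 CPM) and astrocytes (8.89 ± 5.40 CPM) were lower. CA3 (4.65 ± 1.54 CPM) and CA1 (4.42 ± 1.98 CPM) were near oligodendrocytes (3.64 ± 2.01 CPM) and microglia (3.42 ± 2.29 CPM). Ntf3 was found in 64.6% of CA2 nuclei (median 21798 UMIs), 38.3% of dentate granule nuclei, 4.67% of CA1 nuclei (median 12739 UMIs) and 0.820% of oligodendrocyte nuclei (median 2196 UMIs), and after thinning in 13.6%, 6.42%, 0.320% and 0.288%. Among the large types, dentate granule neurons exceeded interneurons, the next type, by 2.47 ± 1.08 (SD) on the log2 scale in 8 of 8 libraries (exact permutation test, adjusted p = 0.0234). Within interneurons (11.4 ± 4.8 CPM) the level was 30.6 ± 18.1 CPM in the Lamp5 subtype, 15.03 ± 11.1 CPM in the Pvalb subtype and 1.8 to 3.3 CPM in the Sst, Vip and Cnr1 subtypes. Over all inhibitory nuclei, with those without a subtype, Ntf3 was at 21.2 CPM in WT and 18.8 CPM in GKO. The means of interneurons were 10.3 and 9.81 CPM.

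Ntrk2 (ENSMUSG00000055254, chromosome 13, 58806569 to 59133970, + strand), which encodes the BDNF receptor TrkB, was highest in astrocytes. There it was at 1269, 1147 and 1061 CPM in WT, 1425, 1244 and 1184 CPM in GKO, 1025 CPM in J20;WT and 1399 CPM in J20;GKO. Cajal-Retzius cells (932 ± 102 CPM), the cluster led by Nts (814 ± 300) and interneurons (763 ± 99.9) followed. Deep-layer cortex neurons (651 ± 160 CPM), CA2 (584 ± 232), the cluster led by Cbln4 (556 ± 200), OPCs (556 ± 58.1) and the cluster led by Kcnip1 (552 ± 85.8) had similar levels. Below them came the cluster led by Pdzrn3 (442 ± 119), CA1 (395 ± 45.04), the CA3 cluster led by Col6a1 (353 ± 98.9), CA3 (301 ± 51.5), mural cells or fibroblasts (291 ± 77.7) and dentate granule neurons (243 ± 30.4). Microglia (47.6 ± 26.7) and oligodendrocytes (35.5 ± 9.4) were lowest. Most steps of this order held among the large types. Astrocytes exceeded interneurons (0.68 ± 0.12), interneurons OPCs (0.45 ± 0.23), OPCs CA1 (0.49 ± 0.22) and CA1 CA3 (0.40 ± 0.27, all SD on the log2 scale), each in 8 of 8 libraries (exact permutation test, adjusted p = 0.0234 for each). CA3 against dentate granule neurons did not pass (0.30 ± 0.34, higher in 7 of 8 libraries, exact permutation test, adjusted p = 0.0518), and dentate granule neurons exceeded microglia by 2.51 ± 0.75 (adjusted p = 0.0234). At least 1 Ntrk2 UMI was found in 96.4% of astrocyte nuclei (median 3805 UMIs) and 7.16% of oligodendrocyte nuclei, and after thinning in 68.6% and 3.25%.

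Interneuron subtypes held Ntrk2 at 969 ± 195 CPM (Lamp5), 832 ± 173 CPM (Pvalb), 783 ± 150 CPM (Vip), 668 ± 70.6 CPM (Sst) and 508 ± 60.4 CPM (Cnr1). Within CA1, the subcluster led by Dcn held 325 ± 41.4 CPM and the other held 480 ± 92.0 CPM. The annotation lists 10 Ntrk2 transcripts with 9 distinct 3′ ends and 4 overlapping genes, 3 of them antisense, so a count per gene joins the kinase and truncated forms.

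Ntrk3 (ENSMUSG00000059146, chromosome 7, 78175959 to 78738012, - strand), the gene of the NT-3 receptor TrkC, had a different order, led by principal neurons. In dentate granule neurons it was at 1116, 949 and 896 CPM in WT, 1102, 899 and 915 CPM in GKO, 661 CPM in J20;WT and 661 CPM in J20;GKO. Both J20 mice were thus below the other 6, where they were above them for Bdnf. How many of all genes have both J20 mice outside the range of the others is not given here. The cluster led by Nts (760 ± 164 CPM), the CA3 cluster led by Col6a1 (760 ± 72.9), CA1 (731 ± 59.2), CA3 (689 ± 122), CA2 (653 ± 73.5), the cluster led by Pdzrn3 (649 ± 118), the cluster led by Cbln4 (633 ± 117) and OPCs (588 ± 47.8) followed, and the ranges of neighbours in this part of the order overlapped. Interneurons (480 ± 62.0 CPM), deep-layer cortex neurons (396 ± 118), mural cells or fibroblasts (374 ± 69.1), Cajal-Retzius cells (183 ± 164) and astrocytes (154 ± 53.4) were lower. The cluster led by Kcnip1 was lower, at 105 ± 28.9 CPM, with no overlap with deep-layer cortex neurons (214 to 535 CPM), and microglia (52.2 ± 15.3) and oligodendrocytes (41.3 ± 12.9) were lowest. Among the large types interneurons exceeded astrocytes by 1.69 ± 0.45 (SD) and astrocytes exceeded microglia by 1.53 ± 0.43 on the log2 scale, each in 8 of 8 libraries (exact permutation test, adjusted p = 0.0234 for each). Dentate granule neurons against CA1 did not pass (0.28 ± 0.21, higher in 7 of 8 libraries, exact permutation test, adjusted p = 0.0518). Pvalb interneurons held 918 ± 90.1 CPM, with every library at 820 CPM or more, whereas the Cnr1, Vip, Sst and Lamp5 subtypes had means of 261 to 390 CPM and no library above 671 CPM. Ntrk3 has 20 annotated transcripts, each with its own 3′ end, and 4 overlapping genes, 2 of them antisense.

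Ngfr (ENSMUSG00000000120, chromosome 11, 95568818 to 95587735, - strand) was near the limit of detection, with 150 UMIs in all 32041 nuclei. Its level over all nuclei was 0.443 to 0.854 CPM in the 8 libraries. The most UMIs came from oligodendrocytes (34 UMIs, 2.2 ± 0.6 CPM, 1.2 to 2.8 CPM in the 8 libraries) and from the cluster led by Kcnip1 (30 UMIs, 5.3 ± 4.2 CPM). In that cluster 6.51% of 415 nuclei had a UMI (median 13124 UMIs), against 0.0540% of dentate granule nuclei (median 7777 UMIs), and after thinning 0 of 414 nuclei had one. Mural cells or fibroblasts held 12 UMIs, and 1 library was at 23.8 CPM while 5 had 0. CA2, Cajal-Retzius cells and the Sst, Pvalb, Vip and Lamp5 interneurons held 0 UMIs, and a count of 0 allows up to 0.916 CPM in CA2, 4.20 CPM in Cajal-Retzius cells and 0.666, 0.708, 1.70 and 0.899 CPM in those interneurons, for counting error only. Among the large types, oligodendrocytes exceeded OPCs in 8 of 8 libraries (log2 difference 1.35 ± 0.69 with a prior of 1 CPM, exact permutation test, adjusted p = 0.0234). The OPCs held 2 UMIs.

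Sort1 (ENSMUSG00000068747, chromosome 3, 108284082 to 108361511, + strand) was the only one of the 6 with its highest mean in oligodendrocytes. There it was at 306, 415 and 415 CPM in WT, 291, 306 and 348 CPM in GKO, 409 CPM in J20;WT and 304 CPM in J20;GKO. The groups overlapped. Microglia (309 ± 85.2 CPM) and the CA3 cluster led by Col6a1 (304 ± 46.4) came next, then the cluster led by Nts (270 ± 22.0), CA1 (259 ± 9.7), the cluster led by Kcnip1 (251 ± 22.7), dentate granule neurons (241 ± 13.6) and CA3 (241 ± 9.9), which varied little between libraries. The cluster led by Cbln4 (221 ± 29.0), CA2 (220 ± 24.8), astrocytes (200 ± 16.9), the cluster led by Pdzrn3 (184 ± 21.04), deep-layer cortex neurons (171 ± 17.1), mural cells or fibroblasts (170 ± 32.2) and Cajal-Retzius cells (150 ± 48.3) filled the middle of the order. Interneurons (109 ± 8.1) and OPCs (51.2 ± 17.3) were lowest. Among the large types CA1 exceeded dentate granule neurons by 0.10 ± 0.08 (SD) on the log2 scale, and CA3 exceeded astrocytes by 0.27 ± 0.11. Astrocytes exceeded interneurons by 0.86 ± 0.14 and interneurons OPCs by 1.14 ± 0.49. Each difference held in 8 of 8 libraries (exact permutation test, adjusted p = 0.0234 for each). Interneurons and OPCs were neighbours over all 17 types too, where the comparison did not pass (exact permutation test, adjusted p = 0.15). The next comparisons are again those among the large types. Oligodendrocytes against microglia (0.20 ± 0.57, higher in 5 of 8 libraries) and dentate granule neurons against CA3 (both with a mean of 241 CPM) did not pass (exact permutation test, adjusted p = 0.523 and 1). OPCs and oligodendrocytes, successive stages of one lineage, thus held the lowest and the highest mean, with at least 1 Sort1 UMI in 15.7% and 51.2% of nuclei, and in 3.05% and 28.3% after thinning. The annotation has 2 genes overlapping Sort1, 1 of them antisense.

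**Figure D2:**
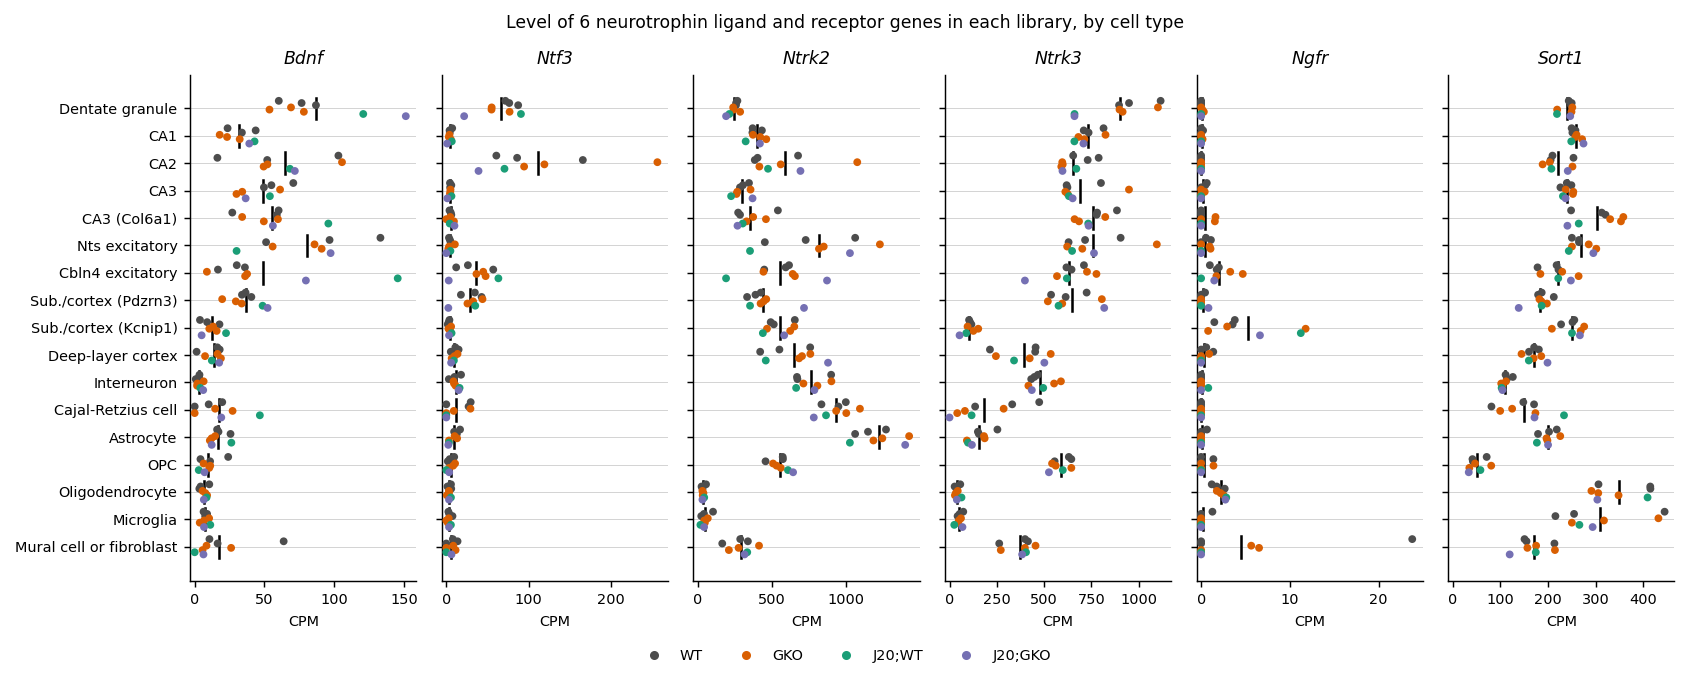
Level of the 6 genes (CPM, linear axes that differ between panels) in 17 cell types, with 1 point per library coloured by group and a bar at the mean of the 8 libraries. Bdnf has its highest mean in dentate granule neurons (87.1 CPM) and Ntf3 in CA2 (112 CPM), Ntrk2 peaks in astrocytes at 1219 CPM, Ntrk3 in dentate granule neurons at 900 CPM and Sort1 in oligodendrocytes at 349 CPM.

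The comparison of GKO with WT mice asks what loss of GSAP does to these genes in each cell type. 0 of the 64 tests of the 6 genes in 15 cell types passed the thresholds, which were 0.05 for the adjusted p and 0.3 for the size of the log2 fold change (edgeR quasi-likelihood test, 3 GKO and 3 WT mice), against 0.000644% of all 155192 tests in those types, or 1 call, in CA2, where that is 0.0164% of the genes. The other 14 types had 0 calls. Bdnf could be tested in 11 types, Ntf3 in 8, Ntrk2, Ntrk3 and Sort1 in 15 each, and Ngfr in 0, since its counts were under the filter in each of the 15. The directions were even, with 32 estimates above and 32 below 0. An unadjusted p under 0.05 was found in 2 of the 64 (3.13%, against 1.94% of all tests), and the smallest adjusted p was 0.999. DESeq2 gave 0 calls and 0 unadjusted p under 0.05 for the 6 genes, against 5 and 975 among all 155192 tests. In 4 of the 64 the 3 WT and 3 GKO values did not overlap, against 6.68% of all tests.

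Bdnf in astrocytes was one of these 4, at 16.1, 17.1 and 25.7 CPM in WT and 14.7, 12.1 and 10.9 CPM in GKO, with a log2 fold change of -0.60 ± 0.26 (SE, edgeR adjusted p = 0.999). The estimate was -0.28 with the stricter filter on nuclei and -0.21 with cell types from marker sums. Its level there is low, and the J20 mice were at 26.3 and 12.2 CPM. In the cluster led by Pdzrn3 Bdnf was at 36.5, 33.9 and 40.6 CPM in WT and 19.7, 29.5 and 33.7 CPM in GKO (-0.36 ± 0.24, edgeR adjusted p = 1.00). The estimates for Bdnf were also below 0 in CA1 (-0.44 ± 0.24), CA3 (-0.51 ± 0.28) and dentate granule neurons (-0.13 ± 0.16), with overlapping groups, and the last one moved to 0.027 without the second GKO mouse. In CA1 the estimate was -0.18 without the second WT mouse and -0.69 without the third GKO mouse, and -0.20 with cell types from marker sums. In CA3 it was -0.28 without the third and -0.89 without the first GKO mouse. Over its 11 types Bdnf had 7 estimates below and 4 above 0.

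Ntf3 in dentate granule neurons had the smallest p of the 64, at -0.32 ± 0.14 (SE, edgeR adjusted p = 1.00), with 78.6 ± 7.95 CPM in WT and 62.3 ± 12.6 CPM in GKO (SD, n = 3 each). In these nuclei 1.51% of 14079 genes had an unadjusted p under 0.05. The third GKO mouse, at 76.9 CPM, lay within the WT range. Over all nuclei Ntf3 was at 25.5, 25.96 and 33.2 CPM in WT and 23.6, 21.4 and 23.2 CPM in GKO, which did not overlap (-0.29 ± 0.12, edgeR adjusted p = 1.00). Over all nuclei 5.15% of 19193 genes did not overlap and 1.32% had an unadjusted p under 0.05. Its estimates in other types pointed both ways, from -0.60 in astrocytes to 0.59 in CA2.

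Among the receptors, Ntrk2 estimates ran from -0.16 to 0.48 over 15 types, with SEs of 0.11 to 0.46, and 10 of 15 were above 0. Ntrk3 estimates ran from -0.29 to 0.26, and the groups were apart in CA2, at 654, 788 and 730 CPM in WT and 596, 598 and 591 CPM in GKO (-0.26 ± 0.16, edgeR adjusted p = 1.00). With CA2 taken from marker sums the estimate was -0.022. Sort1 estimates ran from -0.24 in oligodendrocytes to 0.24 in the CA3 cluster led by Col6a1, where WT mice had 248, 313 and 321 CPM and GKO mice 358, 331 and 353 CPM (edgeR adjusted p = 1.00). Whether genotype differences differed between dentate granule neurons, CA1 and CA3 was tested with an interaction term, and 0 of 15 tests of these genes passed, against 0% of all genes in each of the 3 pairs. The estimates for Bdnf were -0.29 ± 0.21 for CA1 minus dentate granule neurons and -0.40 ± 0.41 for CA3 minus dentate granule neurons (edgeR adjusted p = 0.999 and 1.00).

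**Figure D3:**
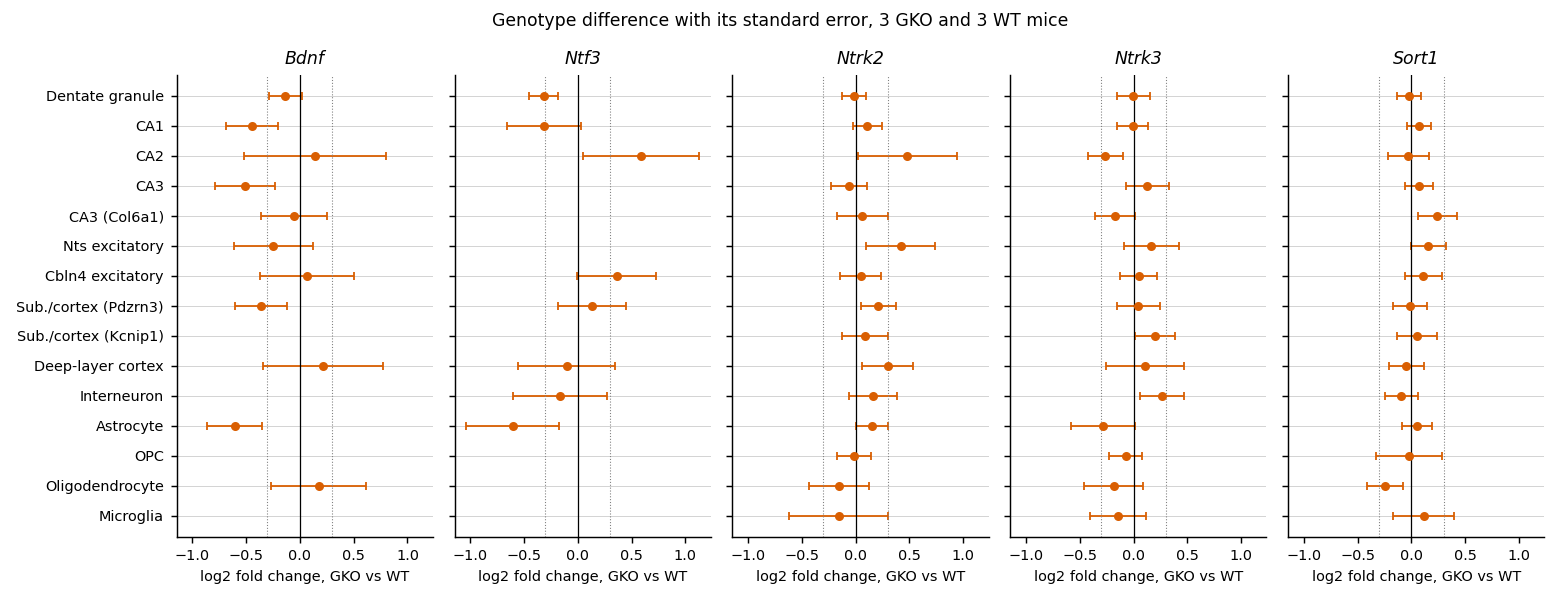
Log2 fold change of 5 genes between 3 GKO and 3 WT mice, with its standard error, in each type where the gene passed the filter on low counts, with dotted lines at the threshold of 0.3 in size. The estimates lie on both sides of 0, from -0.60 for Bdnf and Ntf3 in astrocytes to 0.59 for Ntf3 in CA2, and 0 of 64 passed the test.

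The J20;GKO and J20;WT mice were compared as a pair of single animals, with exact Poisson 95% intervals, which cover counting error only. A log2 ratio (prior of 1 CPM) was read against the largest ratio between mice of 1 genotype among the 6 others. In the 8 large types, 26 combinations of gene and type held at least 50 UMIs in the pair, and 6 of them (23.1%) lay beyond that range, against 24.9% of 60228 combinations over all genes. The count depended on how nuclei were chosen and typed. It was 9 of 25 (36.0%, against 25.4% over all genes) with a stricter filter on nuclei, 12 of 30 (40.0%, against 25.4%) with cell types from marker sums and 5 of 25 (20.0%, against 24.7%) with doublets removed.

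Of these 26 combinations Ntf3 in dentate granule neurons had the largest difference. It was at 90.7 CPM (82.5 to 99.5) in J20;WT and 21.7 CPM (17.2 to 27.0) in J20;GKO, from 445 and 79 UMIs, a log2 ratio of -2.01 where mice of 1 genotype differed by at most 0.48. The J20;WT value was just above the 54.9 to 87.3 CPM of the other 6 mice, and the J20;GKO value was below them. Of the 11065 genes compared in these nuclei, 34.6% lay beyond their range and 20.7% were lower beyond it, and 54 genes had a lower ratio than Ntf3 (0.488%). The level was low in J20;GKO in each of the 3 granule subclusters, at 10.5, 8.59 and 39.5 CPM where the other 7 mice had at least 50.2 CPM. Granule nuclei in the third of these subclusters made up 36.1% in J20;GKO, 34.1% in J20;WT and 25.2% to 29.3% in the other mice.

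The same direction was seen for Ntf3 in other excitatory nuclei, from few UMIs. In CA1 it was at 6.67 CPM in J20;WT and 1.02 CPM in J20;GKO (23 and 4 UMIs), and in CA3 at 6.28 and 1.26 CPM (12 and 2 UMIs). In the cluster led by Pdzrn3 it was at 35.2 and 2.49 CPM (13 and 3 UMIs), and in the cluster led by Cbln4 at 63.3 and 2.95 CPM (10 and 2 UMIs), the J20;WT value there resting on 56 nuclei with 158007 UMIs. CA2 was at 70.7 CPM (47.3 to 102) and 39.2 CPM (20.2 to 68.4), a ratio of -0.84 that lay within the range of same-genotype pairs. Interneurons were at 16.2 CPM (9.87 to 24.96) and 15 CPM (9.89 to 21.8), with overlapping intervals. Over all nuclei Ntf3 was at 30.8 and 9.3 CPM (-1.63), and 42 of 16235 genes (0.259%) had a lower ratio. Of the 16235 genes 25.9% lay beyond their range. Dentate granule nuclei were 772 of 3335 in J20;WT and 402 of 2731 in J20;GKO. The part of this share in the ratio over all nuclei was not tested.

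Ntrk2 was higher in J20;GKO than in J20;WT in CA1, CA3 and astrocytes. It was at 322 CPM (304 to 342) and 418 CPM (398 to 439) in CA1, at 224 CPM (203 to 246) and 369 CPM (339 to 400) in CA3, and at 1025 CPM (962 to 1092) and 1399 CPM (1319 to 1482) in astrocytes, all beyond same-genotype pairs, as were 23.8%, 21.9% and 29.1% of all genes in these types. The J20;WT mouse was below the other 6 in each of these, whereas the J20;GKO mouse lay within their range in CA1 and astrocytes and slightly above it in CA3. Without the CA3 subcluster of few UMIs the log2 ratio in CA3 was 0.68, against 0.72 with it. In CA1 it was 0.68 with cell types from marker sums, against 0.38. The cluster led by Nts held 352 and 1026 CPM and the one led by Cbln4 190 and 871 CPM. For these clusters neither the range of same-genotype pairs nor the share of all genes is given here. In the cluster led by Cbln4 the J20;WT value rests on 56 nuclei, of which 10 passed the stricter filter. The direction was opposite in oligodendrocytes (42.5 and 30.6 CPM) and in dentate granule neurons, at 212 CPM (200 to 226) in J20;WT and 190 CPM (176 to 205) in J20;GKO, both below the 238 to 285 CPM of the other mice. For how many of all genes both J20 mice lie outside the others is not given here.

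Bdnf in dentate granule neurons was higher in J20;GKO (151 CPM, 139 to 165) than in J20;WT (121 CPM, 111 to 131), a log2 ratio of 0.32 within the 0.54 of same-genotype pairs. In the cluster led by Nts it was at 30.04 CPM (22.6 to 39.2) in J20;WT and 97.5 CPM (81.7 to 115) in J20;GKO, with no same-genotype range or share of all genes given. Ntrk3 in dentate granule neurons was at 661 CPM in both. For Ntrk3 in microglia the pair differed beyond that range (25.2 and 68.4 CPM, 9 and 41 UMIs), as 23.0% of genes did there, with the J20;GKO value inside the 42.6 to 72.7 CPM of the other mice. Sort1 differed beyond same-genotype pairs in CA1, from 249 to 275 CPM (0.14 on the log2 scale).

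**Figure D4:**
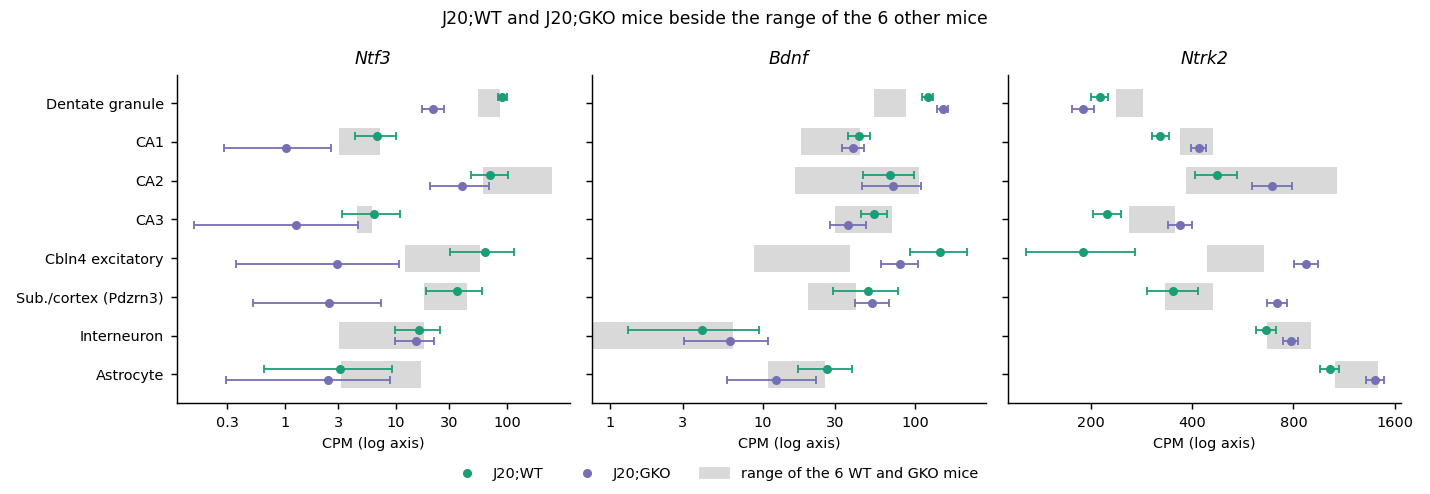
Ntf3, Bdnf and Ntrk2 (CPM, log axes) in the J20;WT and the J20;GKO mouse with exact Poisson 95% intervals, beside grey bars for the range of the 6 WT and GKO mice, in 8 cell types. Ntf3 of the J20;GKO mouse falls below the grey bar in dentate granule neurons (21.7 CPM) and other excitatory types but not in interneurons (15 CPM), and Bdnf of both J20 mice lies above it in dentate granule neurons. The share of all genes with both J20 mice outside the bar is not given.

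**Figure D5:**
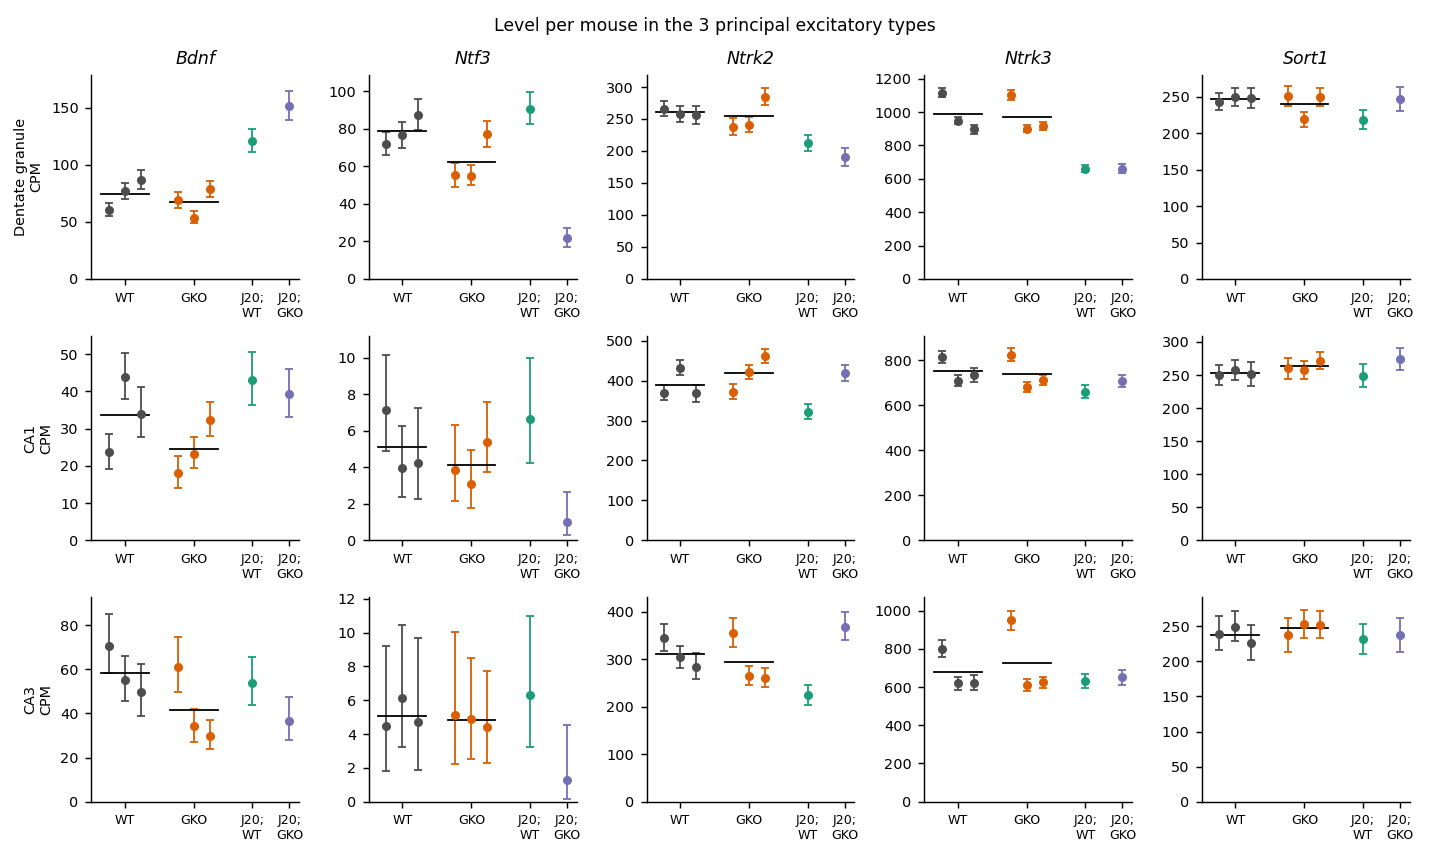
Level of 5 genes (CPM) in every mouse in dentate granule, CA1 and CA3 nuclei, with exact Poisson 95% intervals as error bars and a line at the mean of the 3 WT and of the 3 GKO mice. In dentate granule neurons both J20 mice lie above the other 6 for Bdnf (121 and 151 CPM) and below them for Ntrk3 (661 CPM each), and the J20;GKO mouse stands alone for Ntf3. The share of all genes with both J20 mice outside the other 6 is not given.

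The other genes of the pathway were taken from 5 lists with 46 genes in the matrices, of which 43 were tested in at least 1 type. Of 546 tests of GKO against WT mice, 0 passed in either direction, and 10 had an unadjusted p under 0.05 (1.83%, against 1.94% of all tests). By list, the smallest p belonged to Sorcs3, a sortilin relative, in the CA3 cluster led by Col6a1 among the other receptors (-0.63 ± 0.20) and to Furin, a protease of proneurotrophins, in astrocytes among the processing genes (0.52 ± 0.19). Among Trk adaptors it was Gab2 in the cluster led by Pdzrn3 (0.60 ± 0.22), and among partners of p75NTR Arhgdia in the cluster led by Cbln4 (-0.59 ± 0.33). These 4 had an edgeR adjusted p of 0.999 or 1.00.

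Levels of some pathway genes by type, chosen after their values were seen, follow as a description with no test. Of the other receptors, Sorcs1, another sortilin relative, was at 772 ± 89.0 CPM in oligodendrocytes and 609 ± 50.2 CPM in OPCs. Sorcs2, a co-receptor of p75NTR, was at 305 ± 61.6 CPM in CA2 and 125 CPM in dentate granule neurons, and Sorcs3 at 466 ± 80.7 CPM in CA1.

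Of the genes of precursor processing, Cpe, which encodes carboxypeptidase E, was at 2063 ± 126 CPM in astrocytes and 152 CPM in dentate granule neurons. Pcsk5, a proprotein convertase gene, was at 195 ± 73.2 CPM in dentate granule neurons and 19.1 CPM in CA1, whereas Cadps2, known for BDNF release, was at 77.4 CPM in dentate granule neurons, 455 ± 67.6 CPM in CA1 and 709 ± 97.2 CPM in the cluster led by Nts. Of the adaptors, Gab1 was at 670 ± 116 CPM in oligodendrocytes, Gab2 at 945 ± 58.1 CPM in microglia and Shc4 at 178 ± 25.9 CPM in OPCs.

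By Pearson correlation of log2(CPM + 1) over 136 profiles (17 types in 8 libraries), the genes most like each of the 6 among 11995 were named. The profiles of a library share its depth and those of a type its identity, so these values describe likeness only. Bdnf was most like Rin1, a Ras effector (0.80), Itpka, an inositol trisphosphate kinase of dendritic spines (0.77), and Slit3 (0.76). For Ntf3 they were Ahcyl2 (0.65), Gm43154 (0.64) and A830036E02Rik (0.64). Ntrk2 was like Fmn2 (0.89) and Plcb1 (0.88). Ntrk3 was most like Sntg1 (0.87), the AMPA receptor subunit gene Gria3 (0.86) and the postsynaptic scaffold gene Dlgap1 (0.85), and Sort1 was most like Acap2 (0.62), Mast3 (0.56) and Rab40c (0.56). The highest correlation of Ngfr, with its few UMIs, was 0.47. Among the 6 genes themselves the values were 0.48 for Bdnf with Ntrk3, 0.14 for Bdnf with Ntrk2, 0.41 for Ntf3 with Ntrk3 and -0.42 for Ntrk2 with Sort1.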

How the data were processed

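Libraries of hippocampal nuclei from 8 mice were analysed. The UMI counts per gene and nucleus are those the authors deposited. Per the labels, Cell Ranger with mm10 was used upstream, and Seurat 3.0 and R 3.6.2 for the authors' own analysis. Whether intronic reads were counted is not given in the sources used here. The 6 genes, the gene lists and the tests were chosen with earlier results of these data known.

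Nuclei with at most 5% mitochondrial UMIs and 200 to 7500 genes were kept. Counts were transformed with sctransform 0.4.2 and integrated in Seurat 5.3.0 (3000 anchor features without the 6 genes and the pathway genes, 30 principal components, 20 neighbours). The resolution was 0.8 for all nuclei, 0.3 for excitatory nuclei, chosen after the clusters were seen and pooled by name, and 0.5 for inhibitory nuclei. Clusters were named only where marker scores agreed, and 3 excitatory subclusters rich in doublet calls and 1 of 41 nuclei were left out of the types. Inhibitory nuclei without a subtype were left out too. Doublets were called with Scrublet in scanpy 1.11.5, which failed in the first WT and first GKO library, and none were removed in the reported values.

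Counts were summed per mouse and type. GKO and WT mice were compared with edgeR 4.0.16 in R 4.3.3 (TMM, filterByExpr, robust quasi-likelihood test, Benjamini-Hochberg adjustment over all genes of a type, called below 0.05 with a fold change above 0.3 on the log2 scale). DESeq2 1.42.0, other normalizations, filters, types and left-out mice were alternatives. The edgeR test was run on simulated counts. Cell types were compared within libraries by exact permutation (scipy 1.17.1) of log2 ratios with a prior of 1 CPM. Total UMIs per library, 21020159 to 43310978, set the precision, and intervals and floors (3 counts) cover counting error only.

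The same replicate number in WT and GKO was taken as a pair only in the alternative fit with a replicate block. Deviations of same-numbered mice from their group means correlated over all nuclei at 0.64, 0.24 and 0.27. The reported values come from a fit without the replicate block. Other mice of 1 date correlated at 0.24 and 0.37. Genes named are the 6, Gsap, pathway genes past the threshold or else the smallest p of each list, and for each of the 6 genes the 3 most alike genes. Some genes that these rules name are not reported here. Pathway levels beyond these were chosen after their values were seen. The list named 47 genes, and Ngfrap1 has Bex3 as its current symbol.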

Additional observations from a re-analysis of the deposited data

How the results depend on the processing

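The 6 genes and the pathway genes had 0 calls between GKO and WT mice under every alternative run: other normalizations, no filter on low counts, DESeq2, the replicate block, a date term, a stricter filter on nuclei, doublets removed, types from marker sums, excitatory subclusters at a resolution of 0.03, and each mouse left out (0 to 0). The replicate block changed no call of these genes. It gave 8 unadjusted p under 0.05 among the 64 tests of the 6 genes (edgeR, smallest adjusted p 0.401) and 7109 among the 155192 tests of all genes. The date term gave 7 and 6923, against 2 and 3014 in the main fit. Without the first WT mouse the numbers were 9 for the 6 genes and 6369 among 158742 tests of all genes. In each of these alternative runs the share was larger for the 6 genes than over all genes. With any other mouse left out, the 6 genes had 0 or 2. The interaction tests gave 0 to 0 calls for the 6 genes with a mouse left out, and at most 3 over all genes. Calls over all genes and the 15 types did move, from 1 to 103 with no filter, 11 with the replicate block, 14 with the date term, 5 with DESeq2, and 0 to 4 with a mouse left out.

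Of the named log2 fold changes between GKO and WT mice, Bdnf in dentate granule neurons reversed, to 0.027 without the second GKO mouse (range -0.25 to 0.027). Ranges with 1 mouse left out were -0.69 to -0.18 for Bdnf in CA1, -0.89 to -0.28 for Bdnf in CA3, -0.35 to -0.17 for Ntf3 over all nuclei and -0.38 to -0.16 for Sort1 in oligodendrocytes. The Bdnf log2 ratio of dentate granule neurons to the cluster led by Nts turned to -0.22 without the J20 libraries and to -0.095 without the J20;WT library (range -0.095 to 0.35 with 1 library left out), and that of Ntf3 in CA2 to dentate granule neurons to -0.13 with marker sums. Neighbours passing among the large types numbered 14 to 17 with 1 library left out and 0 without the J20 libraries, where 6 libraries allow no p below 0.03125. J20 combinations beyond same-genotype pairs numbered 12 of 30 with marker sums, against 25.4% over all genes, 9 of 25 with the stricter filter (25.4%) and 5 of 25 with doublets removed (24.7%). Marker sums gave no value for clusters that they do not define. The Bdnf correlation within 1 date was not computed, as a date holds at most 5 libraries and a correlation was given only over at least 6.

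Depth limits Ngfr most, at 150 UMIs, and then Bdnf and Ntf3 in glia, interneurons and small clusters.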
